A study of Homo sapiens with 12 samples.

Results

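The 8 CDK inhibitor genes named CDKN were followed across HL60 cells treated with a differentiating agent, with an inhibitor of CDK4 and CDK6, or with both. They were taken by symbol from the 59251 genes of the deposited table, and all 8 were listed. The INK4 family contributed 4 genes (CDKN2A, CDKN2B, CDKN2C and CDKN2D) and the CIP/KIP family 3 (CDKN1A, CDKN1B and CDKN1C). CDKN3, which encodes a phosphatase, belongs to neither family and is given apart. Of the 8 genes, 7 passed the filter on low counts and were tested; CDKN1C did not pass.

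INK4 proteins bind CDK4 and CDK6 and keep them from pairing with D-type cyclins, the same kinases that palbociclib inhibits. CIP/KIP proteins bind complexes of cyclins with a broader range of CDKs, foremost CDK2 with cyclin E or cyclin A, and are controlled to a large extent at the protein level, through ubiquitin ligases such as SCF-SKP2. RNA-Seq reads the messages of these genes, not the inhibitor proteins. CDKN3 removes an activating phosphate from CDKs and is expressed in cycling cells.

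HL60 is a human acute myeloid leukemia line. Cells were left non-treated or received 1 µM all-trans retinoic acid (ATRA), 1 µM palbociclib, an inhibitor of CDK4 and CDK6 (CDK4/6i), or both at the same doses (CDK4/6i+ATRA), for 48 h. Each of the 4 groups had 3 libraries labelled as biological replicates, 12 in all, from this 1 cell line. The labels do not describe how the cultures were separated, so p-values measure the spread between these libraries. Unless stated otherwise, values are TMM-normalized CPM, that is, counts scaled to a common library total after allowing for differences in composition.

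The libraries held 12230923 to 18679544 counts, with the 3 CDK4/6i+ATRA libraries at the low end. A count of 3, taken as the floor of detection, corresponded to 0.161 to 0.245 CPM by library size. The summed level of 8 myeloid markers was 7126 to 7474 CPM without drugs, 966 to 1015 under ATRA, 4167 to 4299 under CDK4/6i and 1074 to 1125 under both. MPO made up most of that sum without treatment, and 3 of the 8 (ELANE, PRTN3 and AZU1) had 0 counts in every library. The other 4 did not move together. CEBPA fell under all 3 treatments (log2 −1.38, −0.74 and −2.30 for ATRA, CDK4/6i and both), whereas SPI1 rose (0.62, 0.26 and 1.503). LYZ and CD33 fell with ATRA (−1.59 and −0.27) and rose with CDK4/6i (1.03 and 0.34), and with both LYZ rose (0.73) and CD33 was not called (0.09). Their part in the inhibitor levels was not tested. Markers of other blood lineages summed to at most 3.27 CPM over 7 genes, of which PF4, HBB and MS4A1 were at 0 throughout, and 3 non-blood markers to at most 0.233 CPM. In bulk RNA, a change in the proportion of cells that express a gene and a change in its RNA per cell cannot be told apart. All 3 comparisons with non-treated cells share the same control libraries.

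The inhibitor genes did not respond as a unit, and members of the same family moved in opposite directions. ATRA alone was followed by higher messages of 5 of the 7 tested genes and by lower messages of none. The background is broad, since 32.1% of all 13318 tested genes were called higher with ATRA and 35.5% lower. With CDK4/6i alone, 2 members rose and 5 fell, against 28.3% higher and 27.9% lower among all tested genes. Under both drugs, compared with non-treated cells, 3 rose and 4 fell, against 41% and 40.7% of all tested genes. CDKN2B and CDKN1A are among the risers each time. Their non-treated libraries held at most 10 and 8 counts, so they passed the low-count filter through treated libraries. A fall of either gene against non-treated cells could hardly have been called.

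Adding CDK4/6i to ATRA raised 2 members and lowered 4, against a background of 36.9% higher and 32.8% lower. Adding ATRA to CDK4/6i raised 4 and lowered 1, against 39.1% and 39.5%. The median log2 change of the 7 genes was 0.99 for ATRA, −0.44 for CDK4/6i and −0.42 for the combination, where the medians over all tested genes were −0.03, 0.02 and 0.02. By family, ATRA raised 3 INK4 genes and 2 CIP/KIP genes. CDK4/6i raised 1 gene of each family, CDKN2B and CDKN1A, and lowered the other 3 INK4 genes and CDKN1B.

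**Figure D1:**
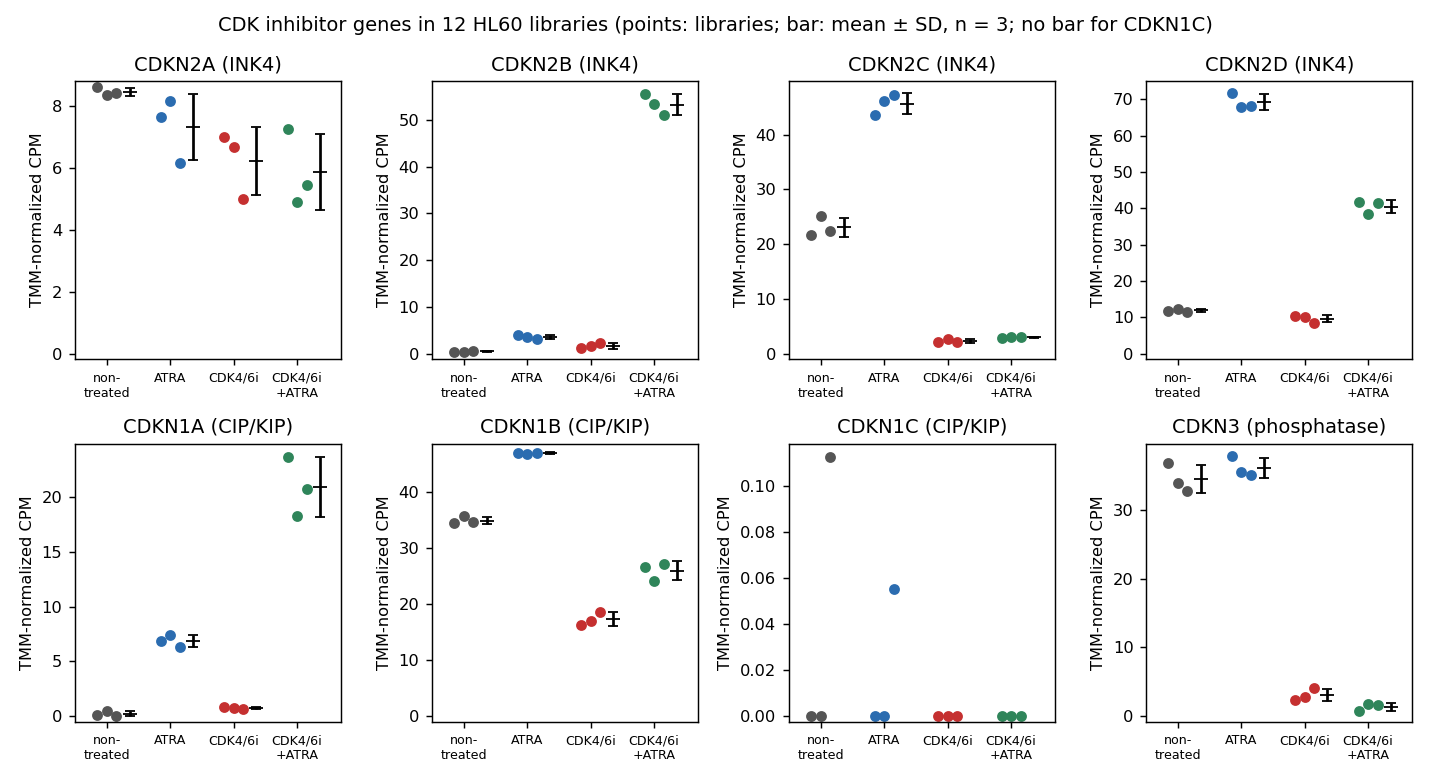
TMM-normalized CPM (linear axes, each starting at 0) of the 8 CDK inhibitor genes in each of 12 HL60 libraries, by treatment; points are libraries and bars give the mean ± SD (n = 3), with no bar for CDKN1C, which had at most 2 counts in any library. CDKN2B and CDKN1A were highest with CDK4/6i+ATRA, CDKN2C, CDKN2D and CDKN1B with ATRA, and CDKN3 was lowest with CDK4/6i+ATRA.

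CDKN2B, which encodes p15INK4b, is the INK4 gene best known as a target of TGF-beta and of MYC-MIZ1 repression. It lies on the minus strand of chromosome 9 (hg38, chr9:22002903-22009313). Without treatment its libraries held 7, 6 and 10 counts, which is 0.421, 0.376 and 0.563 CPM. With ATRA it reached 4.01, 3.56 and 3.15 CPM, and with CDK4/6i 1.09, 1.59 and 2.22 CPM. With CDK4/6i+ATRA the libraries held 606, 598 and 617 counts, or 55.5, 53.3 and 51.0 CPM. No group overlapped another, and the CDK4/6i+ATRA libraries stood an order of magnitude above the rest.

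The message of CDKN2B was higher with ATRA (log2 fold change 2.94 ± 0.27 SE; edgeR adjusted p = 1.20e-13) and with CDK4/6i (1.80 ± 0.33 SE; edgeR adjusted p = 4.47e-06). With both drugs the log2 fold change was 6.84 ± 0.17 SE (edgeR adjusted p = 7.15e-37), a 115-fold rise. Over ATRA alone the rise was 14.9-fold and over CDK4/6i alone 32.8-fold. The rise exceeded the product of the single-drug fold changes, with an interaction of 2.10 ± 0.43 SE on the log2 scale (edgeR adjusted p = 5.00e-05). CDKN2B was the only member called with a positive interaction, where 24.5% of all tested genes were called positive and 27% negative.

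CDKN1A encodes p21, a CIP/KIP inhibitor of CDK2 complexes. It lies on the plus strand of chromosome 6 (hg38, chr6:36676463-36687332). Non-treated libraries held 2, 8 and 1 counts, so that 2 of the 3 were at or under the floor of 3 counts. With CDK4/6i there were 16, 12 and 12 counts, with ATRA 112, 127 and 114, and with both 258, 205 and 251. In CPM these were 0.120, 0.502 and 0.0563 without treatment, 0.830, 0.733 and 0.702 with CDK4/6i, 6.90, 7.40 and 6.30 with ATRA, and 23.6, 18.3 and 20.7 with both. The 4 groups followed each other in that order without overlap.

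ATRA raised the CDKN1A message by 4.92 ± 0.30 SE on the log2 scale (edgeR adjusted p = 4.32e-20) and CDK4/6i by 1.76 ± 0.49 SE (edgeR adjusted p = 0.00171). With both it was higher by 6.53 ± 0.26 SE (edgeR adjusted p = 1.99e-28). The sizes against non-treated cells depended on the second non-treated library. Without it, the log2 changes were 6.17, 3.01 and 7.77, all still called. Comparisons that avoid the non-treated libraries were steadier, with a rise of 3.04-fold when CDK4/6i was added to ATRA and of 27.3-fold when ATRA was added to CDK4/6i. The interaction of CDKN1A was −0.15, with a 95% interval from −1.27 to 0.96, wide enough to hold a departure of more than 2-fold downward.

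CDKN2B and CDKN1A were the 2 members that rose under all 3 treatments, and the sequences before their start sites are shown for comparison. Each is the 250 bases upstream of a RefSeq transcript start (GRCh38.p14), read 5′ to 3′ on the gene's strand, with GC boxes (GGGCGG on either strand) in capitals. The CDKN2B window is chr9:22009306-22009555 on the minus strand, and the CDKN1A window chr6:36678464-36678713 on the plus strand. They hold 2 and 4 GC boxes, overlapping ones included.
CDKN2B: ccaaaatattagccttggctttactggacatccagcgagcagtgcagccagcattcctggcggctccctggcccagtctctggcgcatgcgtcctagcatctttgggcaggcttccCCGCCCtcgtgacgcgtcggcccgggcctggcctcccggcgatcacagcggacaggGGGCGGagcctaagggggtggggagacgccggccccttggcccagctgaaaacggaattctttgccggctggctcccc
CDKN1A: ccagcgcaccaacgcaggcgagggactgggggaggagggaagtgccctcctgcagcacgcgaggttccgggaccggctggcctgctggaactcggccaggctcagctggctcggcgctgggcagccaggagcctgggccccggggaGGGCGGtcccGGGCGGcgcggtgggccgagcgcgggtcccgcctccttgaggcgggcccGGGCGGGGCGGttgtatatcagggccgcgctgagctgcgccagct
Of 34796 promoter windows of that length, 42.6% hold this motif. Neither window holds the retinoid receptor core motif AGGTCA on either strand, which 12% of all windows hold.

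CDKN2D encodes p19INK4d, an INK4 protein of normal haematopoietic cells. Its gene lies on the minus strand of chromosome 19 (hg38, chr19:10566460-10568979). The level was 11.8, 12.4 and 11.4 CPM without drugs, 71.9, 67.8 and 68.2 after ATRA, 10.4, 10.0 and 8.48 after CDK4/6i, and 41.6, 38.3 and 41.3 after both. ATRA libraries were highest, CDK4/6i+ATRA libraries next, and the CDK4/6i libraries lay just under the non-treated ones, with no overlap between any groups.

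ATRA raised CDKN2D by 2.54 ± 0.07 SE on the log2 scale (edgeR adjusted p = 1.15e-33), a 5.84-fold rise. CDK4/6i lowered it by a small margin (−0.30 ± 0.10 SE; edgeR adjusted p = 0.00718), a call that was lost when the third CDK4/6i library was left out (−0.21, edgeR adjusted p = 0.0819). With both drugs the level was 3.41-fold that of non-treated cells (edgeR adjusted p = 1.15e-25) and 1.71-fold lower than with ATRA alone. The interaction was −0.48 ± 0.12 SE (edgeR adjusted p = 0.000404).

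CDKN2C encodes p18INK4c, an INK4 protein whose message is known to vary with the cell cycle. The gene lies on the plus strand of chromosome 1 (hg38, chr1:50968706-50974634). Non-treated libraries held 21.7, 25.1 and 22.4 CPM and ATRA libraries 43.7, 46.1 and 47.3 CPM. With CDK4/6i the level was 2.18, 2.69 and 2.05 CPM, and with both 2.84, 3.12 and 2.97 CPM. The gene was thus high in both groups without CDK4/6i and low in both groups with it.

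ATRA raised CDKN2C 1.98-fold (log2 0.99 ± 0.07 SE; edgeR adjusted p = 8.77e-17) and CDK4/6i lowered it 10.0-fold (log2 −3.32 ± 0.12 SE; edgeR adjusted p = 6.67e-29). With both it was lower by 7.71-fold against non-treated cells and 15.3-fold against ATRA. The rise seen with ATRA alone was smaller in the presence of CDK4/6i. There the log2 change was 0.38, with a 95% interval from −0.02 to 0.77 (edgeR adjusted p = 0.0774), although the libraries did not overlap. The interaction was −0.61 ± 0.21 SE (edgeR adjusted p = 0.0123), and it was no longer called without the second CDK4/6i library (−0.50, edgeR adjusted p = 0.0703). A gene on the opposite strand, LOC124904176, shares 1194 exon bases with CDKN2C and had 53 counts over all libraries against 3738 for CDKN2C.

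CDKN3 lies on the plus strand of chromosome 14 (hg38, chr14:54397007-54420218). It had 36.7, 33.8 and 32.7 CPM in non-treated cells and 37.7, 35.4 and 35.1 with ATRA. It had 2.39, 2.81 and 4.04 CPM with CDK4/6i and 0.733, 1.78 and 1.65 with both. The non-treated and ATRA libraries overlapped, whereas those with CDK4/6i, with or without ATRA, lay far below and apart from each other.

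CDKN3 differed between ATRA and non-treated cells by 0.07 on the log2 scale, with a 95% interval from −0.09 to 0.23 (edgeR adjusted p = 0.462). CDK4/6i lowered it 11.2-fold (edgeR adjusted p = 6.09e-30) and both drugs 24.4-fold (edgeR adjusted p = 6.92e-31). Adding ATRA to CDK4/6i lowered it a further 2.17-fold (edgeR adjusted p = 7.56e-05). The interaction was −1.19 ± 0.26 SE (edgeR adjusted p = 0.000138).

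CDKN2C and CDKN3 were the 2 members that fell most with CDK4/6i, and their promoter windows are shown with different motifs in capitals. The CDKN2C window, chr1:50968456-50968705 on the plus strand, is that of the start at the table's leftmost exon, with its 5 GC boxes in capitals. Other CDKN2C windows, not printed, hold 0 and 1 GC boxes. In the CDKN3 window, chr14:54396757-54397006 on the plus strand, capitals mark 1 cell cycle homology region (CHR, TTTGAA or TTCGAA on either strand) and 2 CCAAT boxes (CCAAT on either strand).
CDKN2C: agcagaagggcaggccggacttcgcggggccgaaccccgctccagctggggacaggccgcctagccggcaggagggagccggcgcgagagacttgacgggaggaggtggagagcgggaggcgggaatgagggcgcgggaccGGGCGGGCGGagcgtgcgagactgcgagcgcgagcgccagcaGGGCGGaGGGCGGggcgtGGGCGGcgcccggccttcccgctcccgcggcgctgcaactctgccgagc
CDKN3: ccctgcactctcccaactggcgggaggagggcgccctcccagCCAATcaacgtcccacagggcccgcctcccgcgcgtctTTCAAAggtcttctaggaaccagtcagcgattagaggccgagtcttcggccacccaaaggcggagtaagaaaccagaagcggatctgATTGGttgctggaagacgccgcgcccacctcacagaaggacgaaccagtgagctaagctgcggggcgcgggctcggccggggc
A CHR is found in 14.4% of all promoter windows and a CCAAT box in 32%. CCAAT boxes also lie in the windows of CDKN1B (2), CDKN2D (1) and CDKN2C (1, in a window not printed). None of the 10 windows of the 7 inhibitor genes with an entry holds any of 4 E2F motifs searched on both strands (TTTCCCGC, TTTCGCGC, TTTGCCGC and TTTGGCGC), which 2.78% of all windows hold. These are matches of letters in short windows and show no binding. Of the 10 windows, 7 hold a GC box, against 42.6% of all promoter windows.

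CDKN1B encodes p27, the CIP/KIP inhibitor that is marked for destruction by SCF-SKP2. It lies on the plus strand of chromosome 12 (hg38, chr12:12717368-12722369). The level was 34.4, 35.6 and 34.5 CPM without drugs, 47.0, 46.7 and 46.9 after ATRA, 16.3, 17.0 and 18.6 after CDK4/6i, and 26.7, 24.1 and 27.1 after both. The groups did not overlap, and the CDK4/6i+ATRA libraries lay between those of CDK4/6i and those of non-treated cells.

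ATRA raised CDKN1B 1.35-fold (edgeR adjusted p = 4.24e-08) and CDK4/6i lowered it 2.02-fold (edgeR adjusted p = 2.41e-17). With both it was 1.34-fold lower than in non-treated cells (edgeR adjusted p = 7.17e-07) and 1.503-fold higher than with CDK4/6i alone. The interaction was 0.16, with a 95% interval from −0.04 to 0.36 (edgeR adjusted p = 0.187).

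CDKN2A encodes p16INK4a and, from another start and reading frame, p14ARF, which acts on MDM2 and not on CDKs. A gene count cannot tell these messages apart. The gene lies on the minus strand of chromosome 9 (hg38, chr9:21967752-21995324), next to CDKN2B. Its level was 8.59, 8.34 and 8.39 CPM without drugs, 7.64, 8.16 and 6.13 after ATRA, 7.001, 6.66 and 4.97 after CDK4/6i, and 7.24, 4.90 and 5.45 after both. All treated libraries lay under the non-treated ones, and the 3 treated groups overlapped each other.

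CDKN2A was lower with CDK4/6i (log2 −0.44 ± 0.14 SE; edgeR adjusted p = 0.00820) and with both drugs (−0.53 ± 0.16 SE; edgeR adjusted p = 0.00229). The call with CDK4/6i was lost without the third CDK4/6i library (−0.30, edgeR adjusted p = 0.0975). With ATRA the log2 change was −0.21, with a 95% interval from −0.49 to 0.07 (edgeR adjusted p = 0.186). Between both drugs and ATRA it was −0.32 (edgeR adjusted p = 0.0755), and between both drugs and CDK4/6i −0.09 (edgeR adjusted p = 0.621). The antisense RNA CDKN2B-AS1 shares 341 exon bases with CDKN2A and had 3 to 25 counts in each library, where CDKN2A had 55 to 149.

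The neighbours CDKN2A and CDKN2B therefore differed under the same drugs. With both drugs CDKN2B stood at 118 times its non-treated mean CPM and CDKN2A at 0.695 times. MTAP, which lies beyond CDKN2A and serves methionine salvage, was lower in all 3 treated groups, with log2 changes of −0.93, −0.26 and −1.62 for ATRA, CDK4/6i and both. CDKN2B-AS1 was not called in any of the 3 comparisons with non-treated cells.

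CDKN1C encodes p57, an imprinted CIP/KIP gene best known in placenta and embryonic tissues. It lies on the minus strand of chromosome 11 (hg38, chr11:2883218-2885775). It had 2 counts in the third non-treated library, 1 in the third ATRA library and 0 in the other 10 libraries. Its message was at or under the floor of 3 counts in every library, and no fold change is given. At this depth a difference in CDKN1C between groups was not detectable. The table lists this gene on an alternate contig as well, and how reads that match both copies were counted is not stated, so the low count does not show a low message. The myeloid genes ELANE, PRTN3 and AZU1 are listed in the same way and had 0 counts. Among the 4349 genes listed on both, 66% had no count in any library, against 51.5% of the other 54902 genes. No other inhibitor gene is listed on an alternate contig.

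**Figure D2:**
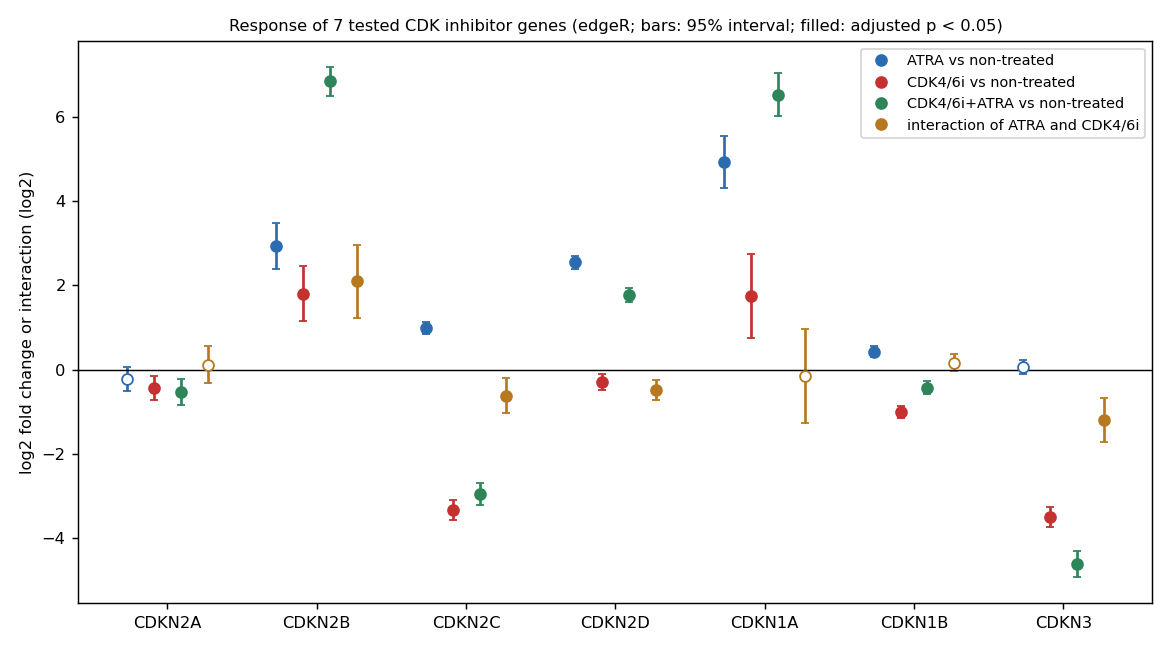
Log2 fold changes against non-treated cells and the interaction (log2) of the 7 tested genes, as points with 95% intervals from edgeR; filled points had an adjusted p under 0.05. CDKN2B rose by 6.84 and CDKN1A by 6.53 with CDK4/6i+ATRA, while CDKN2C and CDKN3 lay under −2.9 with CDK4/6i, with or without ATRA.

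The interaction asks whether the change with both drugs equals the sum of the single-drug changes on the log2 scale, that is, whether the fold changes multiply. It was called for 4 of the 7 genes, near the 51.45% of all tested genes called in either direction. CDKN2B reached 53.3 CPM with both drugs, where the product of the single-drug folds gives 12.9 CPM and the sum of the single-drug differences 4.75 CPM. For CDKN1A the measured 20.9 CPM lay near the 22.9 CPM of the product and above the 7.40 CPM of the sum. The product for CDKN1A rests on the second non-treated library. Without it the product was 58.8 CPM, above the measured level, and the interaction −1.41 (edgeR adjusted p = 0.103). Both genes thus exceeded the sum of the differences, and CDKN2B also the product.

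The genes with negative interactions lay under the product. CDKN2D reached 40.4 CPM against a product of 56.3, CDKN2C 2.98 against 4.57, and CDKN3 1.39 against 3.23. For CDKN1B (25.9 CPM, product 23.3) and CDKN2A (5.87 CPM, product 5.38) the interaction was not called. The interval for CDKN2A, from −0.32 to 0.56 on the log2 scale, still admits departures in both directions.

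**Figure D3:**
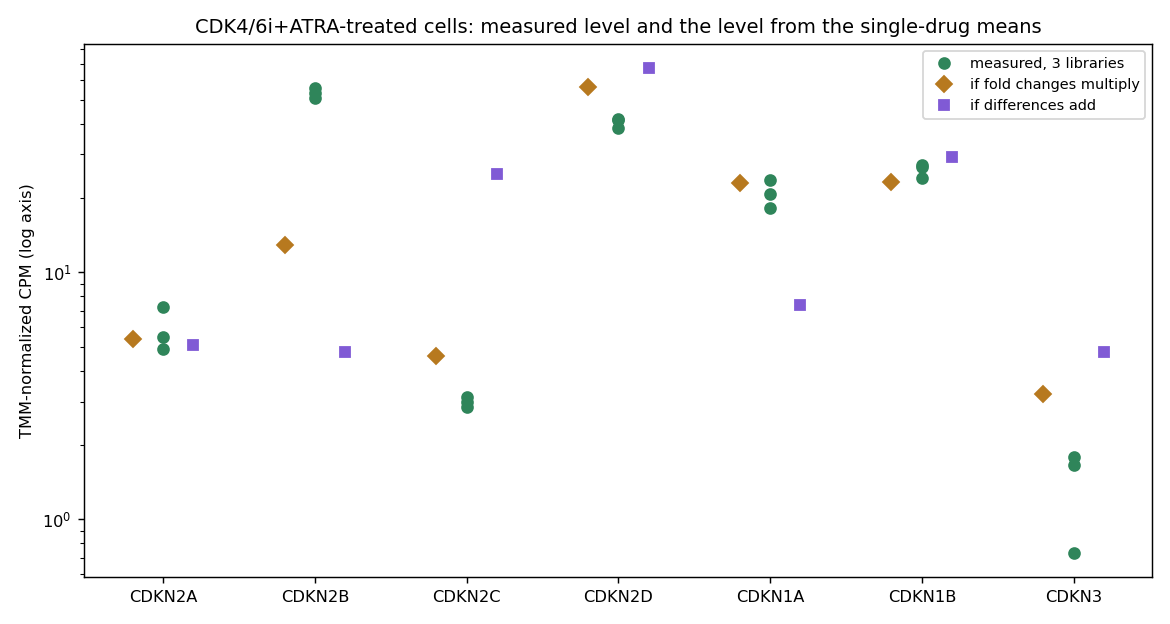
TMM-normalized CPM (log axis) of the 7 tested genes in the 3 CDK4/6i+ATRA libraries (circles), beside the levels calculated from the group means if the single-drug fold changes multiply (diamonds) or if the differences add (squares). CDKN2B lies above both calculated levels, CDKN1A near the product (22.9 CPM, or 58.8 CPM without the second non-treated library), and CDKN2C, CDKN2D and CDKN3 below both.

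Levels of different genes were compared as TPM, which corrects for gene length within a library. In non-treated cells CDKN3 was highest (96.1 TPM), followed by CDKN1B (37.7), CDKN2C (27.5), CDKN2D (21.8) and CDKN2A (6.22). CDKN2B (0.297 TPM) and CDKN1A (0.174 TPM) came last among the tested genes, and their ranges overlapped. With ATRA, CDKN2D moved to the top at 131.1 TPM, ahead of CDKN3 (104.2), CDKN2C (56.3) and CDKN1B (52.4). CDKN2A (5.56 TPM) and CDKN1A (5.47 TPM) overlapped there.

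With CDK4/6i, CDKN1B (17.9 TPM) and CDKN2D (16.9 TPM) overlapped at the top of a lower scale. With both drugs the order was CDKN2D (55.1 TPM), CDKN2B (26.0), CDKN1B (20.9) and CDKN1A (12.02), and none of these ranges overlapped. CDKN2A (3.24 TPM), CDKN3 (2.85) and CDKN2C (2.64) followed with overlapping neighbours. The INK4 messages that led were thus CDKN2C and CDKN2D in non-treated cells, and CDKN2D and CDKN2B with both drugs.

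INK4 messages made up 59.5% ± 0.603 (SD, n = 3) of the summed TPM of both families in non-treated cells. The share was 77.1% ± 0.223 after ATRA, 57.4% ± 4.02 after CDK4/6i and 72.6% ± 0.965 after both drugs (SD, n = 3 each). The ATRA and CDK4/6i+ATRA libraries all lay above the others, whereas the CDK4/6i range, 52.8 to 60.1%, overlapped the non-treated range of 59.1 to 60.2%.

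The share of single genes in the summed TPM of both families shifted as well. CDKN2C fell from 29.3% without treatment to 2.21% with both drugs, and CDKN2B went from 0.318% to 21.7%. Of the CIP/KIP genes, CDKN1B made up 40.3% without treatment and 17.4% with both, while CDKN1A went from 0.181% (0.0743% without the second non-treated library) to 9.97%. CDKN2D held 23.2% without treatment and 51.8%, 38.9% and 46.0% with ATRA, CDK4/6i and both.

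Between groups, the summed levels were compared as RPKM, that is, TMM-normalized CPM per kilobase of gene length. The INK4 sum was 21.4 ± 1.05 without drugs, 72.5 ± 0.951 after ATRA, 9.98 ± 0.980 after CDK4/6i and 44.8 ± 1.70 after both (SD, n = 3 each). The CIP/KIP sum was 14.5 ± 0.344, 21.5 ± 0.122, 7.40 ± 0.477 and 16.9 ± 1.39 in the same order. The CIP/KIP sum and the shares rest on CDKN1A and CDKN1B, since CDKN1C was hardly counted. The INK4 sum and share include any p14ARF messages counted under CDKN2A. Both sums were lowest with CDK4/6i and highest with ATRA. The groups did not overlap in either sum on this scale. The order of the CIP/KIP sum between non-treated cells and both drugs depended on the scaling: in TPM it was 37.9 ± 1.07 without drugs and 32.9 ± 3.94 after both (SD, n = 3 each), with overlapping ranges. Without a length correction the INK4 share was 55.5, 70.1, 52.3 and 68.7% in the same order.

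**Figure D4:**
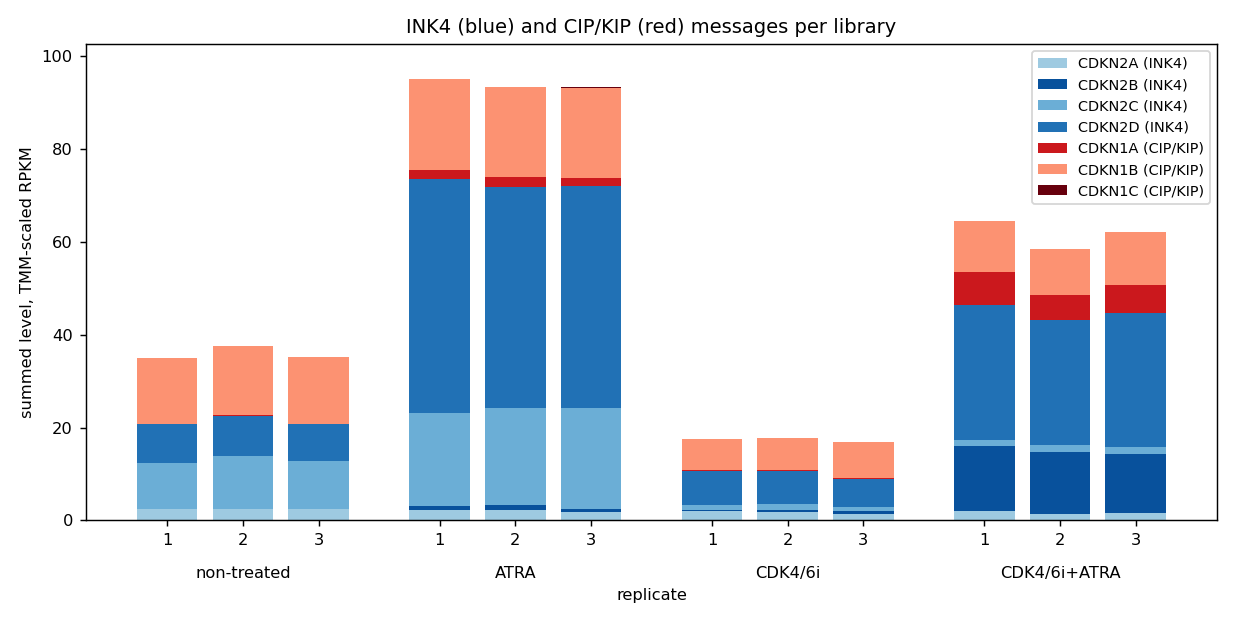
Summed level (TMM-scaled RPKM, bars from 0) of INK4 genes (blue) and CIP/KIP genes (red) in each of the 12 libraries, divided by gene. CDKN2D and CDKN2C fill most of the ATRA bars, and CDKN2B and CDKN1A are visible as larger segments only in the CDK4/6i+ATRA libraries.

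The targets of these inhibitors moved as well. CDK4 and CDK6, the kinases that INK4 proteins bind, had log2 changes of −3.28 and −1.36 with both drugs and of −1.24 and −0.95 with ATRA, all called lower. With CDK4/6i alone they parted, CDK4 being lower (−0.49) and CDK6 higher (0.19). Of the 5 genes for D-type cyclins and their kinases, 1 rose and 4 fell with ATRA, 3 rose and 2 fell with CDK4/6i, and 2 rose and 3 fell with both. Among all tested genes the shares higher and lower were 32.1% and 35.5%, 28.3% and 27.9%, and 41% and 40.7% in the same order. The ratio of INK4 TPM to the TPM of CDK4 and CDK6 together was 0.340 ± 0.0225 (SD, n = 3) in non-treated cells and 0.209 ± 0.0147 (SD, n = 3) with CDK4/6i. It was 2.66 ± 0.0285 (SD, n = 3) with ATRA and 5.36 ± 0.293 (SD, n = 3) with both, with no overlap between groups. This is a ratio of messages and not of proteins, and its INK4 part includes any p14ARF messages counted under CDKN2A.

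Among the D-type cyclins, the partners of CDK4 and CDK6, CCND3 rose with ATRA (log2 change 1.54) and with both (1.00), and fell by 0.13 with CDK4/6i. CCND2 fell by 1.35 with ATRA and by 1.96 with both, and rose by 0.45 with CDK4/6i. CCND1 fell by 0.26 with ATRA and rose by 1.03 with CDK4/6i and by 1.33 with both. CDK2, the main kinase bound by CIP/KIP proteins, fell by 0.27 with ATRA, by 2.33 with CDK4/6i and by 3.52 with both. CCNE1, its cyclin E partner, fell by 4.64 with both. Of the 7 other cyclins and CDKs, 4 were higher and 2 lower with ATRA, against 32.1% and 35.5% of all tested genes. With CDK4/6i all 7 were lower (background 27.9%), and with both 6 were lower (40.7%) and 1 higher (41%).

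The list of 12 genes that serve the ubiquitination of CIP/KIP proteins holds ligase components and cofactors, among them PCNA, a replication clamp. It had 11 lower and 1 higher with ATRA, 8 lower and 3 higher with CDK4/6i, and 9 lower and 2 higher with both, where 35.5, 27.9 and 40.7% of all tested genes were lower. SKP2, which recognises p27, fell by 0.62, by 1.24 and by 3.15 on the log2 scale with ATRA, CDK4/6i and both. CKS1B, its cofactor, fell by 0.36, by 1.52 and by 4.18. The CDKN1B message was meanwhile higher with ATRA and lower with both CDK4/6i treatments.

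Of the 21 tested transcription factors and Polycomb proteins known to act on these genes, 15 rose and 6 fell with both drugs, against 41% and 40.7% of all tested genes. With ATRA 14 rose and 5 fell (background 32.1% and 35.5%), and with CDK4/6i 6 rose and 8 fell (28.3% and 27.9%). MYC, which represses CDKN1A and CDKN2B through MIZ1, fell by 3.10 with ATRA, by 3.94 with both and by 0.13 with CDK4/6i. ZBTB17, which encodes MIZ1, fell by 0.28 with ATRA and rose by 0.33 with both. With both drugs EZH2 fell by 3.48 and BMI1 rose by 1.04, and these encode Polycomb proteins known to act at the CDKN2A locus. FOXM1 fell by 5.93. The part of these genes in the inhibitor levels was not tested.

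The 3 genes most alike to each member were those with the smallest root mean square difference of centred log2 CPM over the 12 libraries, among 9300 genes whose mean level was 5 CPM or more. For CDKN2B they were CD86 (0.256), TIMP1 (0.325) and CLEC4A (0.362), and for CDKN1A C3 (0.295), RGS2 (0.338) and CCL20 (0.403). CDKN2C was closest to PSRC1 (0.384), TMPO-AS1 (0.434) and GPSM2 (0.504), and CDKN3 to DYNC2I2 (0.321), CDC25B (0.377) and RAD51AP1 (0.377). CDKN2D was closest to INAVA (0.134), IVNS1ABP (0.177) and ADGRG5 (0.288).

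For CDKN1B the closest genes were CRYBG1 (0.0991), HAUS4 (0.114) and KMT5A (0.120), and for CDKN2A FBXO34 (0.147), MFSD13A (0.147) and FAM76A (0.151). Among the members themselves the same measure was 0.469 between CDKN2A and CDKN1B, 0.739 between CDKN2C and CDKN3, and 1.03 between CDKN1A and CDKN2B. It was 3.60 between CDKN2B and CDKN2C, which belong to the same family, and reached 4.13 between CDKN2B and CDKN3. The profiles thus did not follow the families. The measure describes these 12 libraries, which fall into 4 groups, and carries no test. It depends on the size of the changes as well as their shape. CDKN2A and CDKN1B scored as close although their log2 changes with ATRA were −0.21, not called, and 0.43, called higher.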

How the data were processed

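RNA-Seq of HL60 cells covered 12 libraries in 4 groups of 3. Per the submitters' processing notes, reads were trimmed with Trimmomatic 0.33 and aligned with STAR 2.7.11a to hg38, under NCBI RefSeq. The authors deposited raw counts per gene without normalization. The table has the layout of featureCounts, while the paper names RSEM, and the library was directional, but counting by strand is not stated. The deposited counts were used as they are, with gene lengths from the same table for TPM.

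Genes were filtered with filterByExpr (13318 kept), normalized with TMM and tested in edgeR 4.0.16 (R 4.3.3) by its quasi-likelihood F test (12 libraries, 1 coefficient per group), with 8 residual degrees of freedom and Benjamini-Hochberg adjustment over all tested genes at 0.05. An SE is the log2 fold change divided by the square root of F. The authors used DESeq2, which was run as an alternative (1.42.0). Other alternatives were DESeq2 size factors, library size alone, other filters, a replicate block, only the groups compared, and leaving out each library. All 8 members were named, with the 3 genes most alike to each tested one and pathway genes tied to them by role. The members and lists were chosen with earlier results of these data known. The test was also run on simulated data, and the outcome is not given here.

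Same-numbered libraries did not deviate together (r from −0.0702 to 0.0328 over 18 pairs), so replicate numbers were treated as names. Promoter windows came from RefSeq (GRCh38.p14), which matched 7 of the 8 genes. The floor of 3 counts covers counting error only. Some genes of the lists are not reported here.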

Additional observations from a re-analysis of the deposited data

Results flagged for a closer look

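The effect of ATRA differed in the presence and absence of CDK4/6i, by the edgeR interaction test, for 4 of the 7 tested inhibitor genes. Among all 13318 tested genes 51.45% were called in either direction, so the count of members is near the background. CDKN2B had an interaction of 2.10 on the log2 scale and rose more with ATRA when CDK4/6i was present. CDKN2C had an interaction of −0.61, CDKN2D of −0.48 and CDKN3 of −1.19. The INK4 genes thus fell on both sides of 0, and neither tested CIP/KIP gene was called.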

How the results depend on the processing

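With DESeq2, with its size factors and with a replicate block, all 42 log2 changes of the 7 genes kept their direction and their side of the threshold. Requiring at least 10 counts in every library left 4 members (CDKN2A, CDKN2C, CDKN2D and CDKN1B). Of these, 3 were called with ATRA, 4 with CDK4/6i, 4 with both drugs, 3 for both against ATRA, 2 for both against CDK4/6i and 2 for the interaction. The calls of these 4 were the same as in the fit of 13318 genes, and the other 3 tested members did not pass it. Of the 10296 genes that passed, 7588, 6742, 8902, 7926, 8619 and 6261 were called in the same order. Without a length correction the INK4 share was 55.5, 70.1, 52.3 and 68.7% in non-treated, ATRA, CDK4/6i and CDK4/6i+ATRA-treated cells.

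Library size alone, which moves the median interaction of all genes from −0.02 to −0.34, turned the uncalled interactions of CDKN1B (−0.16) and CDKN2A (−0.20). Leaving out each library in turn turned 3 uncalled values, with ranges of −0.27 to 0.016 for CDKN2A with both drugs against CDK4/6i, −1.41 to 0.31 for the CDKN1A interaction and −0.054 to 0.23 for the CDKN2A interaction. The cause was not tested. CDKN2A with both drugs against ATRA became called with library size alone (−0.62), without a filter (−0.41), in a fit of the groups compared (−0.38), and without the third ATRA (−0.44) or first CDK4/6i+ATRA library (−0.49). For both drugs against CDK4/6i, CDKN2A became called with library size alone (−0.37) and CDKN2C without the second CDK4/6i library (0.48). The alternate contig copy limits what can be read from CDKN1C. Low non-treated counts limit what the CDKN1A and CDKN2B changes against non-treated cells can show.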
